A study of Mus musculus with 70 samples.

Results

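The clustered protocadherin genes are the 59 genes among the 24346 of the processed table whose symbol places them in the alpha, beta or gamma protocadherin cluster. They were selected by symbol alone, 15 in the alpha cluster, 22 in the beta cluster and 22 in the gamma cluster, and the family was proposed for description with values of these libraries already known. Each measured value is an FPKM, a read number scaled to the length of the transcript and to the mapped reads of the library. Of the 59 genes, 53 reached a mean of 1 FPKM across the libraries and were tested, 12 of them alpha, 20 beta and 21 gamma genes, out of 12994 tested genes in all.

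Clustered protocadherins are cadherin-type adhesion proteins of the neuronal surface. Single neurons express small, differing subsets of them from alternative promoters, and the isoforms bind only matching isoforms on other membranes, which gives neurites a means of telling self from non-self. Each alpha and gamma gene has its own large first exon, which encodes the extracellular, transmembrane and proximal cytoplasmic parts, and is spliced to constant exons shared by its whole cluster, whereas most beta genes consist of a single exon. The last genes of the alpha and gamma clusters, called C-types, differ from the others in sequence and in promoter use and are expressed in most neurons.

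RNA was measured in the bilateral dorsal hippocampus of 70 individually housed male C57BL/6J mice, 12 weeks old, in 7 groups of 10. Each group had 5 libraries from each of 2 harvest cohorts, collected on separate days. Sedentary mice (0-0-0) had no running wheel, and the groups 0-0-2, 14-0-0, 14-14-0, 14-7-2 and 14-7-0 are named by their days of voluntary wheel running, of sedentary delay and of renewed running. All of these mice were handled and habituated to the chamber of the object location memory task (OLM). They then had a 3-min subthreshold acquisition session, with tissue taken 1 h later. Home cage mice had neither running nor the session. Whole tissue was sequenced, so that fewer cells of a type and less RNA per cell cannot be told apart.

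A pair of libraries stood apart. The library 14-7-0 replicate 4 had an estimated depth of 0.0359 relative to sedentary replicate 0, against 0.351 to 1.48 in the other libraries, and 10279 genes listed at 0 FPKM, against at most 7199. Sedentary replicate 6 held little RNA of hippocampal excitatory neurons. Its summed level of 10 markers of CA1 and CA3 pyramidal cells was 190 FPKM, against 944 to 1448 in the other 9 sedentary libraries, with 8 of the 10 markers below that range. Of 10 dentate gyrus granule cell markers 8 were likewise below the range and 1 above it, and all 10 oligodendrocyte markers were above it, with sums of 7525 against 1861 to 4132 FPKM. None of the defining neuronal markers was at 0 in it, although Neurod6, a pyramidal neuron transcription factor, was at 2.45 FPKM against 130.1 to 235.3, and the granule cell factor Prox1 at 2.91 against 11.2 to 30.9. In the remaining libraries Slc17a7, the vesicular glutamate transporter of these neurons, lay at 367 FPKM or higher. Results below are given with and without both libraries.

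On chromosome 18 of the mouse genome (GRCm38, the assembly also named mm10), the alpha genes lie between positions 36930285 and 37188897, the beta genes between 37264998 and 37521419 and the gamma genes between 37661775 and 37841873, all on the plus strand. These positions are those of RefSeq, since the table itself gives symbols only. The alpha cluster occupies 259 kb, the beta cluster 256 kb and the gamma cluster 180.1 kb. Every one of the 14 alpha genes matched to the GENCODE annotation shares the constant exons at 37156155-37156213, 37159265-37159353 and 37184946-37187657, and all 22 gamma genes share those at 37825021-37825079, 37833265-37833353 and 37839903 onward. A gene-specific first exon of 2346 to 3028 bases is therefore the only part that tells an alpha gene from its neighbours, and for gamma genes that exon has 2499 to 2961 bases. Cut into stretches of 50 bases, the length of the reads, the first exons of alpha genes shared a median of 14.7% of stretches with other members. That share had a median of 4.26% in beta genes, taken over the whole transcript, and 0.73% in gamma genes, and it was 0 for each of the 5 C-types. Reads that aligned to several places had been removed. Among the 58 members matched to GENCODE, the largest shares were those of Pcdha7 (23.4%), Pcdha11 (18.4%) and Pcdhgb2 (17.9%). These shares leave out the unmatched member Pcdha7-g, which begins with Pcdha7, so the share of Pcdha7 is too low. They also leave out the non-members Gm37013 and Gm38666, which start at the same place as Pcdha4 and Pcdha6. For Pcdhgb1, which recurs in the comparisons, the share was 16.8%.

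The C-types Pcdhgc5, Pcdhgc3 and Pcdhac2 were the most abundant members per length. Pcdhgc5 had a mean of 49.1 ± 5.21 FPKM (SD, n = 70 libraries) with a range of 32.4 to 59.5. Pcdhgc3 followed at 29.5 ± 5.42 FPKM and Pcdhac2 at 17.6 ± 1.93 FPKM. The other C-types were not among the highest, with 4.22 ± 1.04 FPKM for Pcdhgc4 and 2.45 ± 0.513 FPKM for Pcdhac1. Of the mean gamma total, Pcdhgc5 made up 26.9% and Pcdhgc3 16.2%, and Pcdhac2 made up 42.9% of the mean alpha total.

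Among the remaining gamma genes, Pcdhga11 (12.7 FPKM), Pcdhga3 (8.45 FPKM) and Pcdhga12 (6.87 FPKM) led. After Pcdhac2, the highest alpha genes were Pcdha12 (3.72 FPKM), Pcdha4 (2.79 FPKM), Pcdha9 (2.48 FPKM) and Pcdhac1. No beta gene dominated its cluster: Pcdhb9 (6.2 FPKM) made up 11.8% and Pcdhb17 (5.99 FPKM) 11.4% of the mean beta total, followed by Pcdhb7 (3.64 FPKM), Pcdhb20 (3.57 FPKM) and Pcdhb12 (3.17 FPKM). The median member had a mean of 5.23 FPKM in the gamma cluster, 2.07 FPKM in the beta cluster and 1.63 FPKM in the alpha cluster without the fusion transcript Pcdha7-g.

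**Figure D1:**
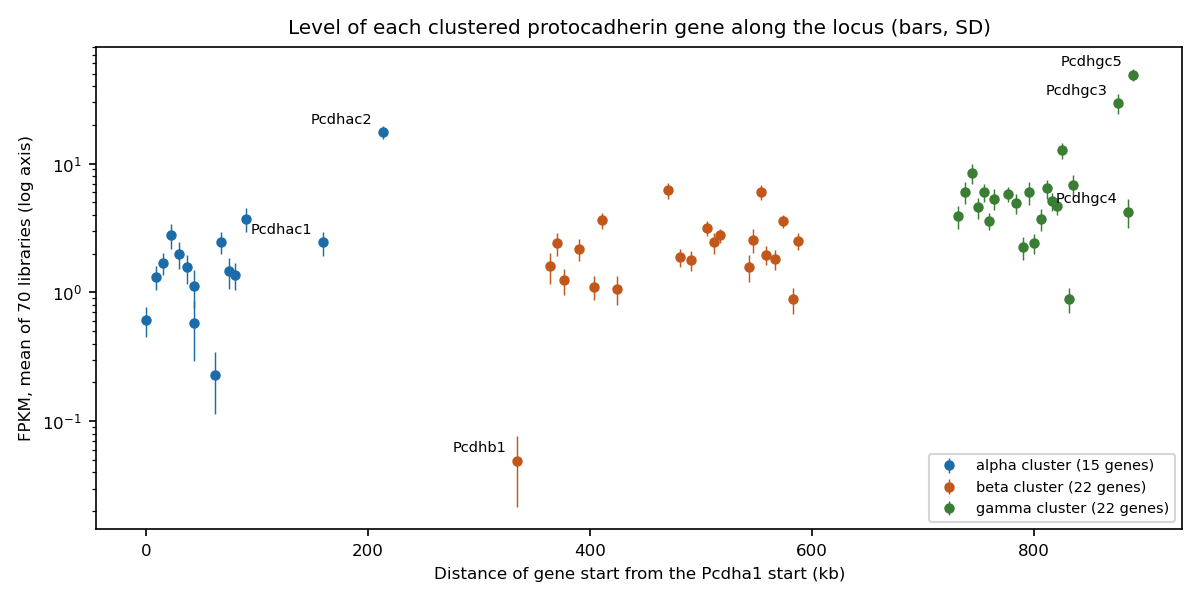
Mean FPKM of each of the 59 members over 70 libraries (log axis, bars SD), plotted by the distance in kb of its start from the start of Pcdha1 and coloured by cluster. The C-types Pcdhac2, Pcdhgc3 and Pcdhgc5 stand at 17.6, 29.5 and 49.1 FPKM at the downstream ends of the alpha and gamma clusters, and Pcdhb1 at 0.0493 FPKM is the lowest member.

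Below the minimum of 1 FPKM were Pcdhgb8 (0.886), Pcdhb21 (0.885), Pcdha1 (0.608), Pcdha7-g (0.577), Pcdha8 (0.229) and Pcdhb1 (0.0493), the first beta gene of the locus. Just above it lay Pcdhb8 (1.06), Pcdhb6 (1.11) and Pcdha7 (1.13). No member was at 0 in most libraries. Pcdhb1 was listed at 0 in 2 libraries, 14-0-0 replicate 1 and 14-7-0 replicate 4. Pcdha7, Pcdha7-g and Pcdha8 had values under 1e-06 FPKM in 14-7-0 replicate 4, where the estimation returned numbers as small as 5.54e-112.

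Between libraries the members varied about as much as other genes of their level. Without the libraries 14-7-0 replicate 4 and sedentary replicate 6, the coefficient of variation had a median of 21.2% in the 15 members between 1 and 2 FPKM, beside 24.7% in all 1291 genes of that range. It was 17.9% beside 18.4% between 2 and 4 FPKM, 16.2% beside 14.6% between 4 and 8 FPKM, and 14.1% beside 12.1% in the 5 members above 8 FPKM. Pcdhac2 (9.51%) and Pcdhgc5 (9.85%) had the lowest values and Pcdhb1 (54.4%) the highest.

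The table lists 3 transcripts that RefSeq places from the start of an alpha gene to the end of the gamma cluster, of which Pcdha7-g alone carries a protocadherin symbol. The others, Gm37013 (also called Pcdha4-g) and Gm38666 (Pcdha6-g), were not members and are given here because they start at the same place as Pcdha4 and Pcdha6. Over the 68 libraries Pcdha7 and Pcdha7-g were inversely related (Pearson r = -0.38 on the log2 scale), as were Pcdha4 and Gm37013 (-0.30) and Pcdha6 and Gm38666 (-0.32). These correlations are descriptions only, since both values of a pair come from overlapping transcripts in the same library, and reads of the shared stretch cannot be told apart. The sum of Pcdha7 and Pcdha7-g had a coefficient of variation of 20.1%, against 30.1% for Pcdha7 alone.

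The first question of the design was whether running, alone or followed by a delay, changed RNA levels relative to sedentary mice 1 h after acquisition. The summed levels of the clusters were close in all groups. The alpha total was 39.9 ± 7.03 FPKM in sedentary mice (SD, n = 10; range 22.1 to 47.0) and had means between 39.6 FPKM in 14-14-0 and 43.0 FPKM in 14-7-2. The beta total was 50.6 ± 8.03 FPKM in sedentary mice (33.4 to 59.7) and reached its highest mean in 14-7-0, at 54.9 ± 6.54 FPKM (42.3 to 65.7). The gamma total was 181.6 ± 15.3 FPKM in sedentary mice (160.8 to 204.9), with means from 180.2 FPKM in 14-0-0 to 186.7 FPKM in 14-7-0. All ranges overlapped. The lowest alpha and beta totals of all 70 libraries were those of sedentary replicate 6. Without it the sedentary means were 41.9 ± 3.40 FPKM for alpha, 52.5 ± 5.62 FPKM for beta and 183.2 ± 15.4 FPKM for gamma (n = 9).

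**Figure D2:**
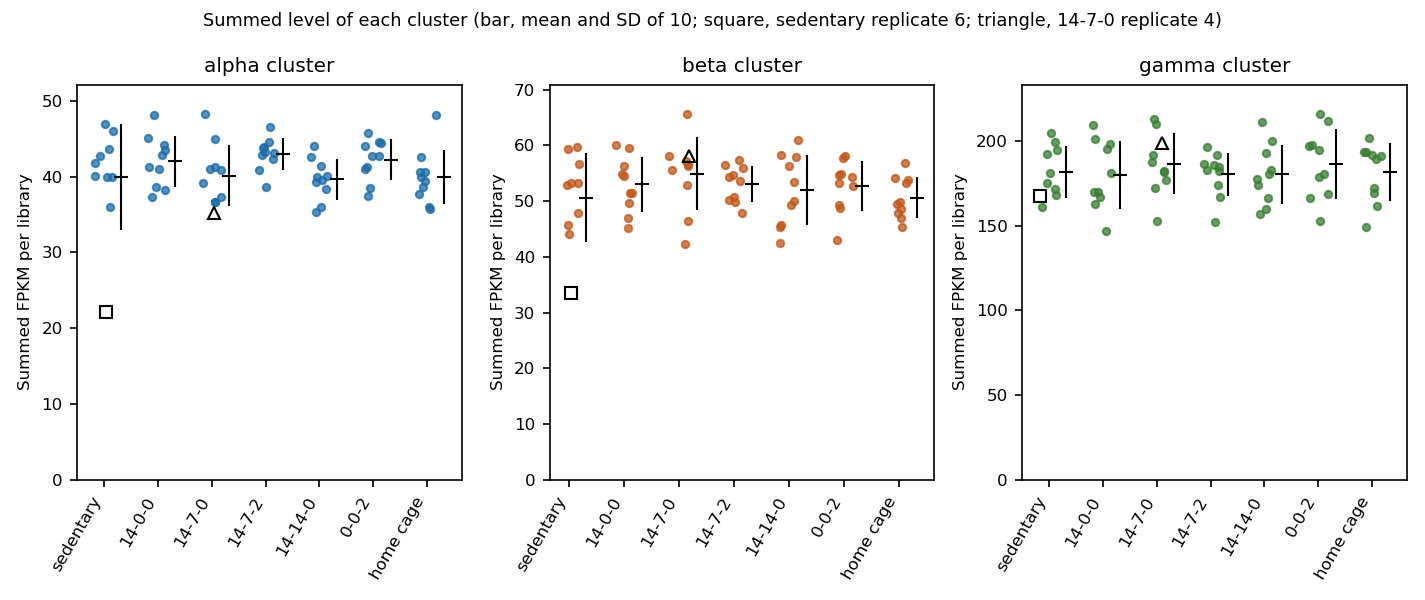
Summed FPKM of the alpha, beta and gamma members in each library (points), by group, with the mean and SD of 10 libraries beside them and axes from 0. Sedentary replicate 6 (square) lies at 22.1 FPKM in the alpha panel and 33.4 FPKM in the beta panel, below all other libraries, but within the sedentary range in the gamma panel.

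Single members were compared by limma's moderated test of log2(FPKM + 0.1), two-sided. A member is termed called where its unadjusted p was below 0.05. No member had an adjusted p under 0.05 in any of the 8 comparisons. Mean levels of the 53 tested members differed between the lowest and the highest group by 1.05-fold for Pcdhb17 to 1.37-fold for Pcdha10. The 6 comparisons with sedentary mice share the same 10 control libraries.

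In 14-0-0 mice, after 14 days of running, 4 of 53 members were called, beside 9.15% of all genes tested. Pcdhb9 and Pcdhb12 were higher, and Pcdhga9 and Pcdhga10 lower. Pcdhb9 had a lowest, median and highest value of 6.11, 6.66 and 7.68 FPKM in 14-0-0 and of 3.37, 6.01 and 7.27 FPKM in sedentary mice. The groups overlapped, with the sedentary median below the lowest value of 14-0-0 (log2 difference 0.25, standard error 0.104, p = 0.0258, limma adjusted p = 0.457). Without sedentary replicate 6 the log2 difference was 0.17 (p = 0.0342), and within the single cohorts, at 0.21 and 0.29, it was not called. For Pcdhb12 the values were 2.84, 3.47 and 4.00 FPKM against 2.44, 2.80 and 3.96 FPKM (log2 difference 0.19, limma p = 0.0449), and without sedentary replicate 6 the call was lost (p = 0.0750). Within cohort 1 its log2 difference was 0.08 and within cohort 2 it was 0.30.

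Pcdhga9 lay at 2.39, 3.35 and 4.05 FPKM in 14-0-0 and at 2.92, 3.84 and 5.01 FPKM in sedentary mice (log2 difference -0.26, standard error 0.0985, limma p = 0.0164, adjusted p = 0.400). The ranges overlapped between 2.92 and 4.05 FPKM. Pcdhga10 lay at 3.54, 4.51 and 5.41 FPKM against 4.38, 5.40 and 6.31 FPKM (log2 difference -0.22, limma p = 0.0196), with -0.37 within cohort 1 and -0.07 within cohort 2. Over the tested members of a cluster, the median log2 difference was 0.13 for alpha, 0.05 for beta and -0.03 for gamma, beside 0.01 over all genes. Without sedentary replicate 6 it was 0.01, 0.00 and -0.02.

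Markers of choroid plexus epithelium also differed in the 14-0-0 comparison, as they did in 14-14-0 and home cage mice. In 14-0-0 all 16 were called higher, as were 4 of 9 tested markers of meninges and fibroblasts, with summed choroid plexus levels from 95.0 to 18531 FPKM (median 2709) against 76.5 to 516 FPKM (median 159) in sedentary mice. With the choroid plexus level of each library as a covariate, 10 of 53 members were called, 9 higher and 1 lower, beside 5.33% of all genes. The added calls were Pcdha7, Pcdhb2, Pcdhb3, Pcdhb4, Pcdhb13, Pcdhb20 and Pcdhgb1, all higher, whereas Pcdhga10 was no longer called (limma p = 0.0692). Each call of this fit had a limma adjusted p of 0.878. The fit kept sedentary replicate 6, in which Pcdhb2, Pcdhb3, Pcdhb4, Pcdhb13 and Pcdhgb1 lay below the range of the other sedentary libraries. It was not repeated without that library. The part of choroid plexus RNA in these differences was not tested otherwise.

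After 14 days of running and 7 sedentary days (14-7-0), 3 of 53 members were called, all higher, beside 3.26% of all genes. Pcdhgb1 had the smallest p of any member in any comparison. It lay at 4.32, 5.26 and 6.37 FPKM (lowest, median, highest) in 14-7-0 and at 2.03, 4.10 and 4.58 FPKM in sedentary mice (log2 difference 0.46, standard error 0.123, limma p = 0.00116, adjusted p = 0.968). The 14-7-0 median was above the highest sedentary value, and the ranges overlapped between 4.32 and 4.58 FPKM. The difference was called under all 13 alternative settings, with 0.31 in cohort 1, 0.61 in cohort 2, and 0.34 (p = 0.000798) without sedentary replicate 6 and 14-7-0 replicate 4.

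Pcdhga2 lay at 5.05, 7.03 and 8.49 FPKM in 14-7-0 and at 3.11, 5.59 and 7.52 FPKM in sedentary mice (log2 difference 0.34, standard error 0.126, limma p = 0.0146, adjusted p = 0.968). Its groups overlapped widely, and the value without both libraries was 0.27 (p = 0.0178). Pcdhb9 lay at 5.17, 6.65 and 8.82 FPKM against the sedentary values given above (log2 difference 0.27, limma p = 0.0366), and the call was lost without sedentary replicate 6 (0.19, p = 0.0689) and without 14-7-0 replicate 4 (0.23, p = 0.0705). Without both libraries it was 0.15 (p = 0.128), and Pcdhga7 was called in its place (0.20, p = 0.0470). The median log2 difference was 0.03 for alpha, 0.13 for beta and 0.03 for gamma members, beside -0.01 over all genes, and without sedentary replicate 6 it was -0.06, 0.05 and -0.01.

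Adding 2 days of renewed running (14-7-2) left no member called against sedentary mice, beside 4.39% of all genes. The smallest unadjusted limma p was 0.0521. By Cyber-T, Pcdhac1 alone passed the threshold (p = 0.0378, adjusted p = 0.984), which describes that setting only. All 12 tested alpha members had a higher mean in 14-7-2, beside 49.8% of all genes, with log2 differences from 0.01 to 0.40 and a median of 0.15. Without sedentary replicate 6, 8 of the 12 had a higher mean, beside 46.4% of all genes, and the alpha median was 0.04. The alpha median was 0.04 in cohort 1 alone and 0.29 in cohort 2 alone, the cohort of sedentary replicate 6. The beta median was 0.11 and the gamma median -0.05, beside 0.00 over all genes.

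Renewed running was also compared directly with its own delay group. Between 14-7-2 and 14-7-0, 2 of 53 members were called, both lower in 14-7-2, beside 5.39% of all genes. Pcdhga7 lay at 3.90, 4.42 and 5.45 FPKM in 14-7-2 and at 4.23, 5.21 and 7.03 FPKM in 14-7-0 (log2 difference -0.23, standard error 0.0859, limma p = 0.0146, adjusted p = 0.734). Pcdhb5 lay at 1.75, 2.07 and 2.68 FPKM against 1.66, 2.51 and 3.18 FPKM (log2 difference -0.23, standard error 0.105, limma p = 0.0402). The ranges of both genes overlapped. The Pcdhb5 difference was -0.44 within cohort 1 and -0.03 within cohort 2, and was no longer called without 14-7-0 replicate 4 (p = 0.0739). In cohort 1 alone, which holds 14-7-0 replicate 4, 6 of 53 members were called, all lower, beside 4.17% of all genes. In cohort 2 alone 3 were called, all higher, beside 5.20% of all genes. The beta median was -0.18 in cohort 1, 0.11 in cohort 2 and -0.05 over all libraries. Of 10 oligodendrocyte markers 6 were called lower in 14-7-2. So were 3 of 10 inhibitory neuron, 2 of 10 microglia, 2 of 8 endothelium and 1 of 10 astrocyte markers. Of 10 markers of CA1 and CA3 pyramidal cells 2 were called higher and 1 lower. The part of these cell types was not tested.

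With a sedentary delay of 14 days (14-14-0), 3 of 53 members were called, beside 4.95% of all genes. Pcdhga9 was lower, at 2.95, 3.29 and 3.78 FPKM against 2.92, 3.84 and 5.01 FPKM in sedentary mice (log2 difference -0.24, standard error 0.0824, limma p = 0.00814, adjusted p = 0.974). It had also been lower in 14-0-0, against the same sedentary libraries. Pcdha7 was higher, at 0.789, 1.26 and 2.00 FPKM against 0.674, 0.922 and 1.43 FPKM (log2 difference 0.37, limma p = 0.0316), with 0.09 within cohort 1 and 0.65 within cohort 2. The overlapping Pcdha7-g, below the minimum mean, went the other way, with means of 0.468 FPKM in 14-14-0 and 0.570 FPKM in sedentary mice. The part of the division of reads between these transcripts was not tested. Pcdhgb2 was higher, at 2.58, 4.19 and 4.57 FPKM against 2.76, 3.24 and 4.18 FPKM (log2 difference 0.22, limma p = 0.0379). The groups overlapped for each of these genes. Without sedentary replicate 6 the calls of Pcdha7 (p = 0.0567) and Pcdhgb2 (p = 0.0630) were lost, and Pcdha12 (-0.39, p = 0.00688) and Pcdhgb7 (0.16, p = 0.0256) were called. The beta median was -0.12 within cohort 1 and 0.24 within cohort 2, beside 0.07 over all libraries. In this comparison too, all 16 choroid plexus markers were called higher, with summed levels of 114 to 25053 FPKM (median 2530). Their part in these differences was not tested beyond the covariate, with which 4 of 53 members were called beside 1.16% of all genes. That fit kept sedentary replicate 6, and each of its calls had a limma adjusted p of 0.999.

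After 2 days of running alone (0-0-2), 1 of 53 members was called, beside 2.37% of all genes. This was Pcdhgb1, at 4.05, 4.36 and 5.83 FPKM against 2.03, 4.10 and 4.58 FPKM (log2 difference 0.28, standard error 0.119, limma p = 0.0287, adjusted p = 1). The ranges overlapped, and the log2 difference was 0.18 without sedentary replicate 6 (p = 0.0345), a value over 1.5 times smaller. Within cohort 1 it was 0.13 (p = 0.283) and within cohort 2 it was 0.43 (p = 0.0600). The call was lost by Cyber-T (p = 0.0537) and with the replicate number as a block (p = 0.0695). Mean log2 levels of 45 of the 53 members were above those of sedentary mice, beside 6898 of 12994 genes tested, and without sedentary replicate 6 the counts were 36 members and 6346 genes. The members had median log2 differences of 0.12 for alpha, 0.09 for beta and 0.04 for gamma members. The alpha and beta medians were 0.04 and 0.02 without sedentary replicate 6. Of 10 oligodendrocyte markers 6 were called lower in 0-0-2, and their part was not tested.

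The home cage group, which had no session and no running, was compared with sedentary mice. In the paper, handling and habituation to the chamber came before the OLM session. Whether home cage mice had these is not stated, so the session and its preparation cannot be told apart. None of the 53 members was called by limma at an unadjusted p under 0.05, beside 2.30% of all genes. Cyber-T also called 0, a count without its share over all genes that describes the setting only. Without sedentary replicate 6, 3 members were called, all lower in home cage mice, beside 3.15% of all genes. These were Pcdha12 (log2 difference -0.30, p = 0.0133), Pcdhb13 (-0.23, p = 0.0108) and Pcdhga12 (-0.26, p = 0.0347). Of the choroid plexus markers, 9 of 16 were called higher in home cage mice, as were 4 of 9 meningeal markers, with summed levels of 144 to 17604 FPKM, and their part was not tested.

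Between harvest cohorts, 1 of 53 members was called, beside 11.9% of all genes. Pcdhb12 was lower in cohort 2, at 3.07 ± 0.396 FPKM against 3.28 ± 0.425 FPKM (SD, n = 35 each, log2 difference -0.10, standard error 0.0424, limma p = 0.0280, adjusted p = 0.338). Of the other beta members 15 also had a lower mean in cohort 2, beside 7753 of 12994 genes tested. The median beta difference was -0.04, beside -0.02 over all genes. Without both libraries 3 members were called, beside 14.4% of all genes, with Pcdha3 (0.15) and Pcdhga8 (0.14) higher in cohort 2.

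**Figure D3:**
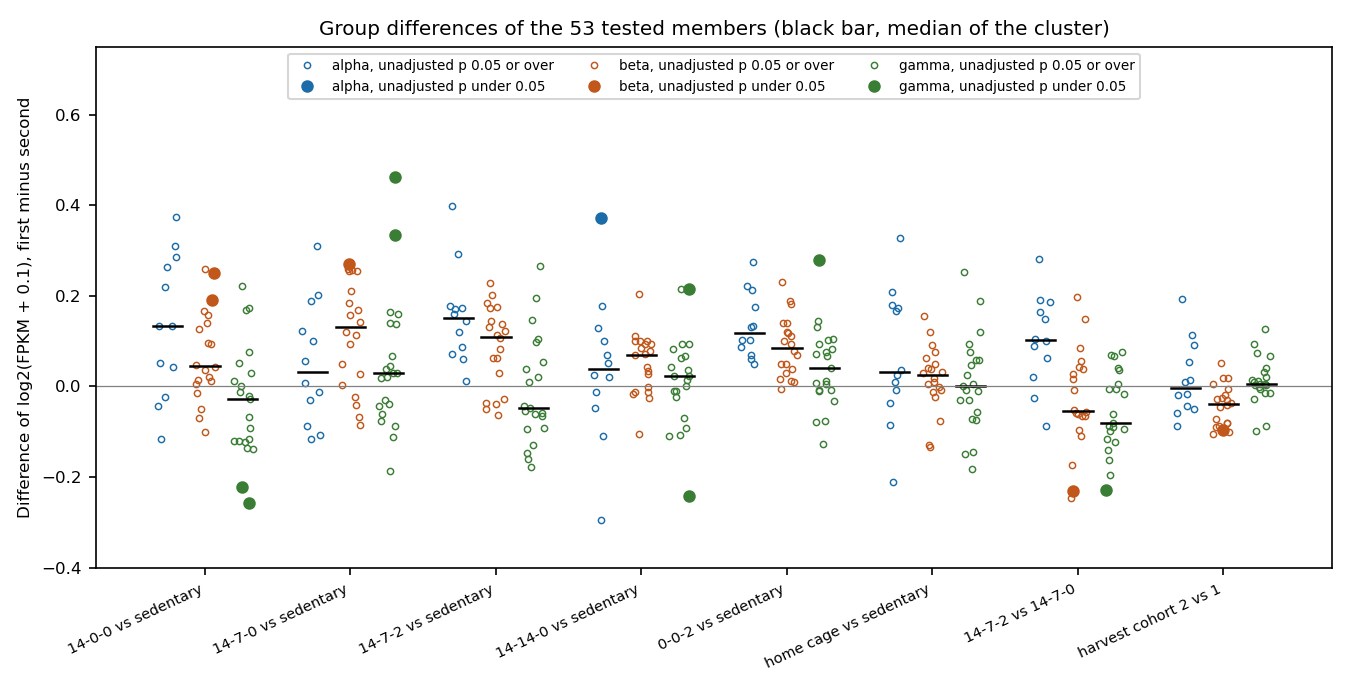
Differences of log2(FPKM + 0.1) of the 53 tested members in each of the 8 comparisons, by cluster, with filled points at an unadjusted limma p under 0.05 and black bars at the cluster medians. Nearly all differences lie between -0.3 and 0.4, and the highest filled point is Pcdhgb1 in 14-7-0 at 0.46.

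Genes that act on or with the clusters were listed separately. Of 17 tested regulators of cluster promoters and chromatin, such as the insulator protein CTCF and cohesin subunits, none was called in any of the 6 comparisons with sedentary mice or in 14-7-2 against 14-7-0. Nor was any of 8 tested nonclustered protocadherins in those comparisons. Of 24 tested signalling partners and processing enzymes, Nrcam, an adhesion molecule of the immunoglobulin family, was called in 14-7-2 against 14-7-0 (log2 difference 0.12, limma p = 0.0439, adjusted p = 0.926) and none against sedentary mice. Between cohorts, where 11.9% of all genes were called, 3 of the 17 regulators were called, all lower in cohort 2. They were the cohesin genes Smc3 (-0.10, limma p = 0.0203) and Stag2 (-0.11, p = 0.0227) and the heterochromatin protein gene Cbx3 (-0.08, p = 0.0369). Among the partners, Adam10, the sheddase of protocadherin ectodomains (-0.09, limma p = 0.00743), was lower in cohort 2 with 2 others, and 1 partner was higher. Of the nonclustered protocadherins, Pcdh8 was higher in cohort 2 (0.18, limma p = 0.0310).

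Members were then compared with each other between libraries. The correlations that follow are descriptions over libraries, without p-values, of values that share the depth, the scaling and the tissue composition of each library. Over 70 libraries the log2 alpha and beta totals had a Pearson r of 0.59 (Spearman's rho 0.44), beta and gamma totals 0.42 (0.41) and alpha and gamma totals 0.23 (0.22). The alpha and beta value rested in part on sedentary replicate 6. Without it and 14-7-0 replicate 4, r was 0.46 (rho 0.46) for alpha and beta, 0.42 (0.38) for beta and gamma and 0.26 (0.24) for alpha and gamma. With the 2 libraries farthest from the median of the first total left out as well, the 3 values were 0.42, 0.37 and 0.27.

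The order of the 3 relations was not the same in both cohorts. In the 34 remaining libraries of cohort 1, r was 0.46 for alpha and beta, 0.34 for beta and gamma and 0.18 for alpha and gamma. In the 34 of cohort 2 it was 0.46, 0.54 and 0.35. Subtracting group means left the values over 68 libraries at 0.46, 0.42 and 0.28.

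Pair by pair, the beta genes varied together most. They are single-exon genes, whereas alpha and gamma members share constant exons whose reads the estimation has to divide among them. The part of this in the order of the clusters was not tested. Over 68 libraries the median r of the 190 pairs of tested beta members was 0.33, with 98.9% of pairs above 0. It was 0.22 in the 210 gamma pairs and 0.13 in the 66 alpha pairs, beside -0.01 over all pairs of tested genes. Between clusters it was 0.12 for alpha with beta, 0.12 for beta with gamma and 0.02 for alpha with gamma. Within cohort 1 the medians inside clusters were 0.35 for beta, 0.28 for gamma and 0.18 for alpha, and within cohort 2 they were 0.35, 0.16 and 0.04.

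Position within a cluster made little difference over all 68 libraries. The 19 neighbouring beta pairs had a median r of 0.37 and the 171 other beta pairs 0.33. For gamma genes the values were 0.23 (20 pairs) and 0.22 (190 pairs), and for alpha genes 0.10 (11 pairs) and 0.14 (55 pairs). In cohort 2 alone, neighbouring beta pairs had 0.49 and the others 0.34.

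The highest single correlations were those of Pcdhb16 with Pcdhb2 (r = 0.78, rho 0.69) and with Pcdhb19 (0.77, rho 0.77), and of Pcdhga12 with Pcdhgc3 (0.76, rho 0.71), which lie next to each other. Against the summed rest of its cluster, a beta member had a median r of 0.55, from 0.21 in Pcdhb7 to 0.83 in Pcdhb16. A gamma member had a median of 0.43, from 0.14 in Pcdhgb1 to 0.73 in Pcdhga12. An alpha member had a median of 0.24, from -0.02 in Pcdha6 to 0.51 in Pcdha2. Pcdhgb1, the member of smallest p in 14-7-0, was the gamma gene that followed its cluster least, and its r with the beta total was 0.37.

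Some members followed another cluster as well. Pcdha5 had an r of 0.58 with the beta total and 0.20 with the rest of the alpha cluster. Pcdhga3 (0.52), Pcdhga12 (0.50) and Pcdhga2 (0.45) followed the beta total most among gamma genes. These members were named after their values had been seen.

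The C-types did not form a group of their own. The gamma C-types varied together, with an r of 0.53 between Pcdhgc3 and Pcdhgc5, 0.50 between Pcdhgc3 and Pcdhgc4 and 0.50 between Pcdhgc4 and Pcdhgc5. Pcdhac2 and Pcdhgc5 had 0.32, and Pcdhac1 and Pcdhac2 had 0.26. The lowest value of all pairs was that of Pcdhac1 with Pcdhgc3, at -0.42 (rho -0.38).

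**Figure D4:**
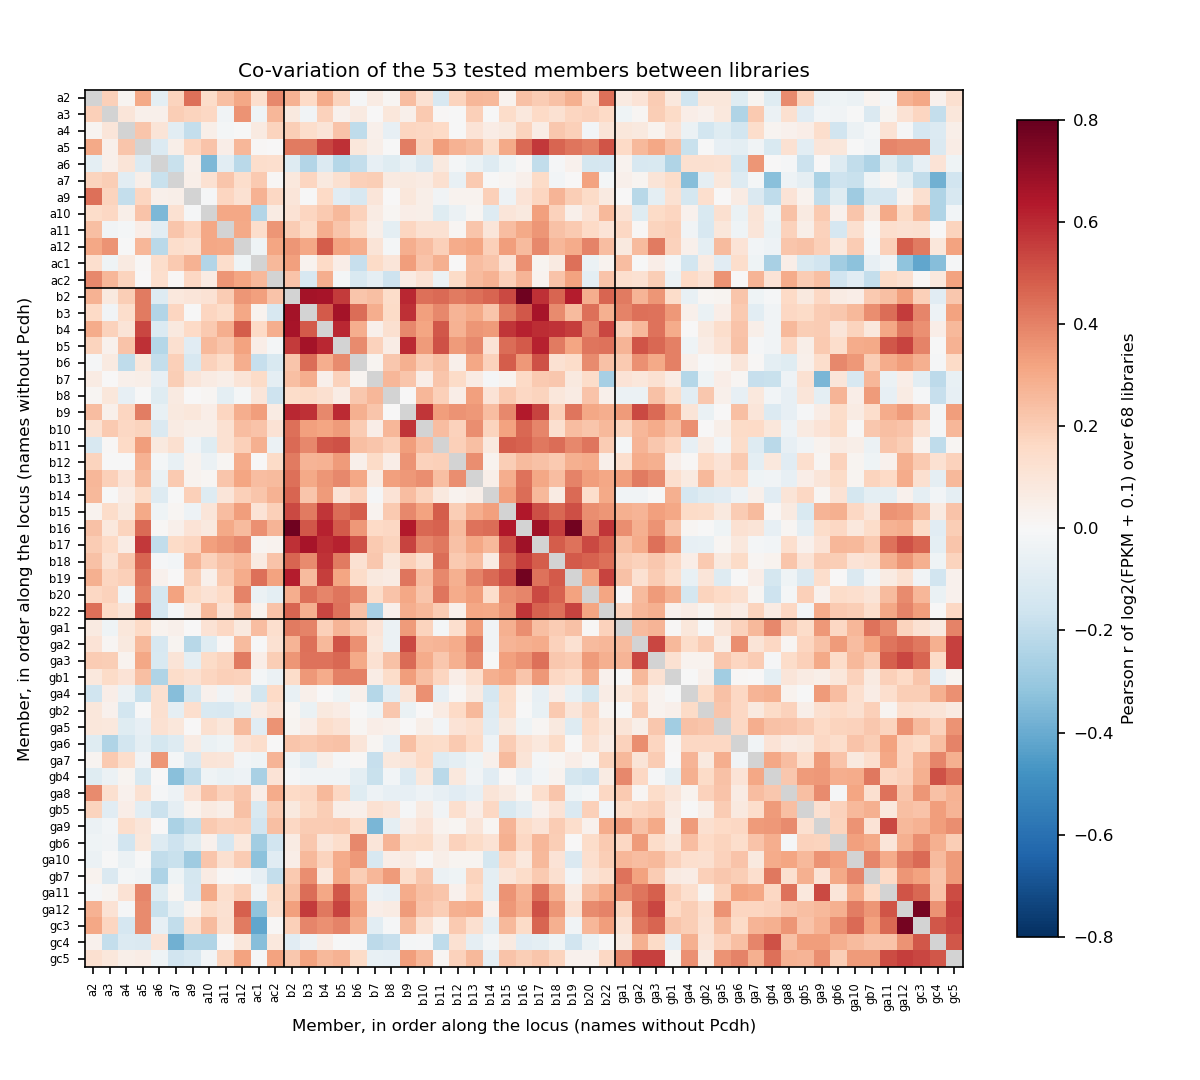
Pearson r of log2(FPKM + 0.1) between each pair of the 53 tested members over 68 libraries (without sedentary replicate 6 and 14-7-0 replicate 4), in order along the locus, with lines between the alpha, beta and gamma clusters. The beta block is red in nearly every cell (median r 0.33), the alpha block paler (0.13), and Pcdhac1 is blue against Pcdhgc3 (-0.42).

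Marker levels moved with the totals over these 68 libraries, and their part in the co-variation was not tested. The gamma total had an r of 0.80 (rho 0.82) with the mean log2 level of 10 astrocyte markers, of 0.51 with microglia markers and of 0.43 with markers of CA1 and CA3 pyramidal cells. Of the gamma C-types, Pcdhgc3 had an r of 0.80 with the astrocyte markers, Pcdhgc5 0.56 and Pcdhgc4 0.48. For the other named gamma members it ran from 0.01 in Pcdhgb2 and 0.24 in Pcdhgb1 to 0.55 in Pcdhga2. The summed astrocyte markers had a narrow range, from 925 to 1379 FPKM over all libraries. The alpha total followed the signalling partners and processing enzymes (0.58, rho 0.56), the pyramidal cell markers (0.54, rho 0.58) and the pan-neuronal markers (0.52), and was lower with more meningeal and fibroblast RNA (-0.46). Pcdhac2, which made up 42.9% of the mean alpha total, had 0.62, 0.39, 0.48 and -0.49 with these lists. With the partners, pyramidal and pan-neuronal lists, Pcdhac1 had 0.26, -0.15 and -0.22 and Pcdha7 had 0.00, 0.20 and 0.13. These values describe the sum, not each alpha member. The beta total followed the dentate gyrus granule cell markers (0.55) and, of all lists, most closely the regulators of cluster promoters and chromatin (0.65). All 3 totals were lower with more choroid plexus RNA, at -0.34 for alpha, -0.32 for beta and -0.42 for gamma.

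Several nonclustered protocadherins, which lie elsewhere in the genome, varied with the clusters in different ways. Pcdh1 (43.6 FPKM) had an r of 0.80 with the gamma total, Pcdh20 (42.9 FPKM) 0.71 with the alpha total and 0.10 with the gamma total, Pcdh9 (24.8 FPKM) 0.66 with the alpha total, and Pcdh17 (12.4 FPKM) 0.67 with the beta total. Among all other tested genes the one most like the alpha total was Mef2a, a transcription factor (r = 0.86). For the beta total it was Myt1l, a neuronal zinc finger factor (0.79), and for the gamma total Sez6l (0.89), followed by Map1a, a microtubule-associated protein (0.88).

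In sedentary replicate 6 the clusters moved apart. Of the 15 alpha members 10 were below the range of the other 9 sedentary libraries and none above, and of the 22 beta members 14 were below and 1, Pcdhb1, above. Of the 22 gamma members 8 were below and 5 above. In all, 54.2% of members were below and 10.2% above, beside 27.1% and 25.2% of all genes tested, which describes this library only. The median log2 difference from the other sedentary libraries was -0.70 for alpha, -0.72 for beta and -0.09 for gamma members, beside -0.02 over all genes.

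Pcdha4 was the furthest below, at 0.503 FPKM against 2.48 to 3.58 FPKM (log2 difference -2.30). In the same library Gm37013, which starts at the same place, was at 1.31 FPKM, and the sum of the pair was 1.82 FPKM against 2.71 to 3.85 FPKM (log2 difference -0.86). Pcdhac1 was at 0.645 FPKM against 1.18 to 2.88 FPKM, Pcdhb11 at 0.602 against 1.49 to 2.16 FPKM, Pcdhac2 at 10.1 against 15.4 to 21.7 FPKM and Pcdhgc5 at 32.4 against 44.9 to 57.4 FPKM. Each of these values was below all other sedentary libraries.

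The gamma genes above the range were Pcdhgc4 (9.05 FPKM against 3.51 to 4.62), Pcdhga7 (8.08 against 3.23 to 5.56), Pcdhgb7 (7.03 against 4.27 to 5.06), Pcdhgb6 (8.78 against 5.33 to 7.50) and Pcdhgb5 (3.19 against 1.74 to 2.96). Pcdhgc4, Pcdhga7 and Pcdhgb7 were at their highest of all 70 libraries. Pcdhgc3 was within the range, at 35.3 FPKM against 21.8 to 36.5. The levels of oligodendrocyte, pyramidal and granule cell markers that stood apart in this library are given above, and 5 of 10 thalamus markers were above and 3 below the sedentary range, with sums of 334 against 43.4 to 57.6 FPKM. Their part in these values was not tested.

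**Figure D5:**
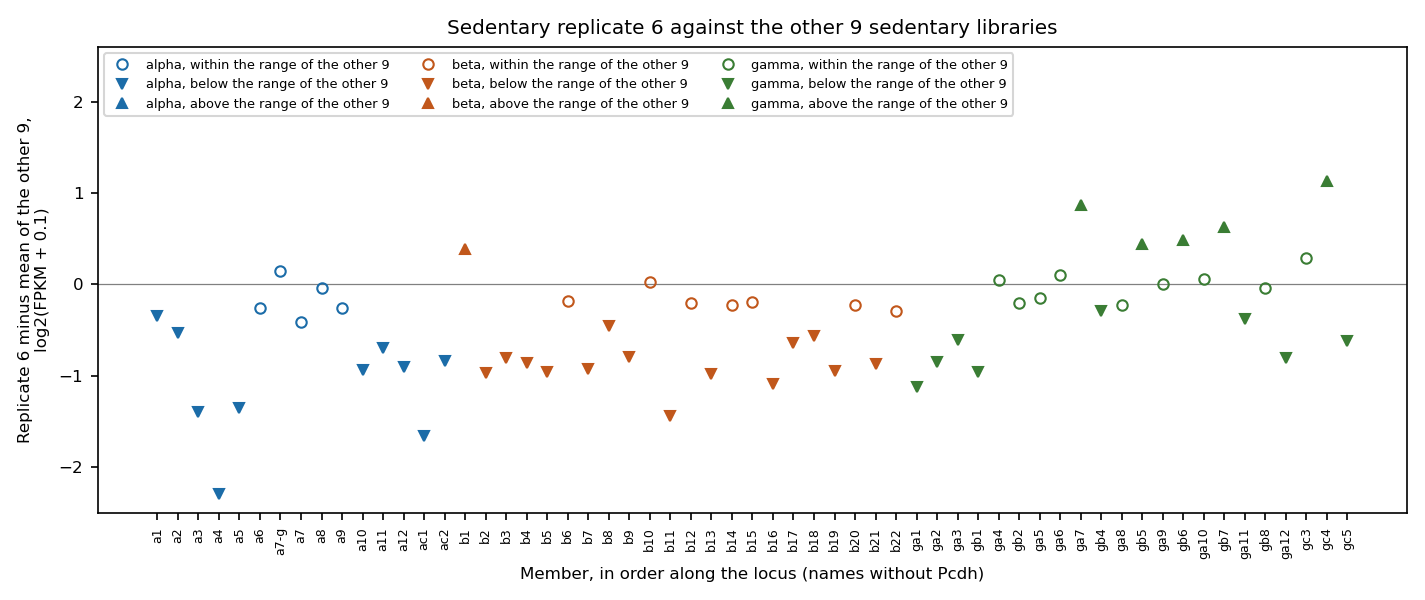
Difference of log2(FPKM + 0.1) between sedentary replicate 6 and its 9 fellow sedentary libraries (mean) for each member in order along the locus, with filled triangles for values outside the range of those 9. The alpha and beta members lie mostly below 0, down to -2.30 in Pcdha4, while the gamma members spread to both sides, up to 1.13 in Pcdhgc4.

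The library 14-7-0 replicate 4 had members on both sides. Of the 59 members 16 were below and 15 above the range of the other 9 libraries of its group, or 27.1% and 25.4%, beside 27.3% and 24.1% of all genes tested. By cluster, 7 alpha members were below and 1 above, 6 beta members below and 8 above, and 3 gamma members below and 6 above. Pcdhb15 (3.61 FPKM against 0.772 to 2.30), Pcdhga5 (9.85 against 4.08 to 6.54) and Pcdhgb8 (1.81 against 0.764 to 1.081) were at their highest of all libraries, and Pcdhb2 (0.508 against 0.744 to 2.55) and Pcdhgc4 (1.56 against 3.16 to 5.11) at their lowest. Neighbours in the locus lay on opposite sides, such as Pcdhb13 below and Pcdhb14 above.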

How the data were processed

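Processed RNA-seq values of 70 libraries were used, 10 in each of 7 groups taken from the sample labels, and all columns were assigned (0 left unused). The deposited values are FPKM, which the authors computed from 50 bp single reads of poly-A RNA. Reads were aligned with ELAND v2e and Bowtie, reads with more than 2 mismatches or several locations were removed, and the standard Tuxedo protocol followed. The submitters' processing notes name Cuffnorm and mm10, and versions of Bowtie and Cuffnorm and the gene annotation are not given in the sources used here. No read counts were used. The paper's supplement lists total reads by sequencing name, which could not be matched to the sample labels, so the number of reads behind a value is unknown. Depth relative to sedentary replicate 0 was taken from the most frequent ratio over the 6646 rows averaging below 0.02 FPKM.

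Members were chosen by symbol and gene lists by function, with earlier results of these data known. The 12994 genes averaging 1 FPKM or more were tested on log2(FPKM + 0.1) with limma 3.58.1 (R 4.3.3; moderated test, trend, two-sided) on the libraries of each comparison, with Benjamini-Hochberg adjustment over all of them. P-values measure the spread between libraries, each from 1 mouse. Members named are those called, the 5 highest per cluster, the C-types and those nearest the minimum, with at most 3 called genes per list and comparison. Other genes named were chosen after their values were seen. Correlations used log2 values (Python 3.11.15, scipy 1.17.1, numpy 2.4.6); figures used matplotlib 3.10.9. The test and the depth estimate were tested on simulated data. Positions are from RefSeq (GRCm38) and exons from GENCODE M21, with 58 of 59 members matched. Alternatives were a pseudocount of 1 FPKM, no minimum mean, scaling by median ratio, the choroid plexus level or harvest cohort as covariate, Cyber-T (window of 101 genes, 10 prior degrees of freedom), a joint fit of all groups, a replicate block, each cohort alone, and fits without sedentary replicate 6, 14-7-0 replicate 4 or both. No promoter or transcript sequence of the locus is shown.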

Additional observations from a re-analysis of the deposited data

Results flagged for a closer look

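Within each group of 10 libraries, the gap between the most extreme library and its nearest neighbour was compared with the range of the group for the 3 cluster totals and 24 named members, in 189 sets of 10 values. For independent sets chosen beforehand, chance alone would mark about 1 in 20 (9.45 here). Some of these members were named because they were called in the same libraries, and the sets share libraries, so the marked number cannot be judged against it. In all, 17 sets were marked. Of these, 7 were values of sedentary replicate 6: the alpha total (22.1 FPKM), Pcdha4 (0.503 FPKM), Pcdhb7 (1.87 FPKM), Pcdhgb1 (2.03 FPKM) and Pcdhgc5 (32.4 FPKM) were low, and Pcdhga7 (8.08 FPKM) and Pcdhgc4 (9.05 FPKM) high. In 14-7-0 replicate 4, Pcdhb20 was high (4.81 FPKM). Pcdhac2 was low in 14-0-0 replicate 5 (15.0 FPKM) and 0-0-2 replicate 8 (15.4 FPKM) and high in home cage replicate 7 (22.9 FPKM). Single high values were those of Pcdhb5 in 14-0-0 replicate 0 (3.32 FPKM), Pcdhac1 in 14-7-2 replicate 9 (4.20 FPKM), Pcdha12 (4.68 FPKM) and Pcdhga12 (9.75 FPKM) in 14-14-0 replicate 6, Pcdhga7 in 0-0-2 replicate 4 (7.87 FPKM) and Pcdhga9 in home cage replicate 1 (5.90 FPKM).

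Between the exercise groups 14-7-2 and 14-7-0, the log2 difference of Pcdhb5 was -0.23 (limma p = 0.0402) and that of Pcdhga7 -0.23 (limma p = 0.0146). This is the direct test of the difference between groups that were each also compared with sedentary mice.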

How the results depend on the processing

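The 27 alternative values of cluster totals and the 9 of the correlations between totals stayed within their spread, and 47 alternative counts of called members stayed within 1.5 times whereas 39 did not. In 14-0-0 (4 called), the count was 10 with the choroid plexus level as a covariate (beside 5.33% of all genes), 1 by Cyber-T and 1 in cohort 2 alone. In 14-7-0 (3 called), it was 5 with the choroid plexus covariate (3.82%), 8 in the joint fit (6.90%), 5 in cohort 1 alone (1.71%) and 1 in cohort 2 alone. In 14-7-2 (0 called), it was 1 with a pseudocount of 1 FPKM, with scaling by median ratio, by Cyber-T, with cohort as a covariate and in cohort 1 alone, 2 with the choroid plexus covariate and in cohort 2 alone, and 4 in the joint fit. In 14-14-0 (3 called), Cyber-T gave 0. In 0-0-2 (1 called), the count was 2 without a minimum mean and with the choroid plexus covariate, and 0 by Cyber-T and in cohort 2 alone. In home cage mice (0 called), it was 2 with the choroid plexus covariate and in the joint fit, 1 in cohort 2 alone and 3 without sedentary replicate 6. Between 14-7-2 and 14-7-0 (2 called), it was 1 with the choroid plexus covariate, in the joint fit and without 14-7-0 replicate 4, 0 by Cyber-T and 6 in cohort 1 alone (4.17%). Between cohorts (1 called), it was 2 with a pseudocount of 1 FPKM, without a minimum mean, with scaling and with the choroid plexus covariate, and 3 without sedentary replicate 6 (beside 12.1%), without 14-7-0 replicate 4 (14.4%) and without both (14.4%). The share over all genes moved with the setting as well, such as from 3.26% to 6.90% in the joint fit of 14-7-0. Counts given here without that share describe the setting only and are not results about the members. The single cohorts hold fewer libraries, and the cause of these moves was not tested. No called member changed sign under an alternative, and 117 alternative values of called members stayed past the threshold whereas 39 missed it. Of the cluster medians, 254 alternative values stayed within the spread and 4 did not, among them the alpha median in 14-0-0, which was 0.30 with the choroid plexus covariate and 0.13 without.

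With the replicate number as a replicate block, 4 members were called in 14-0-0 (beside 14.5% of all genes), 5 in 14-7-0 (5.07%), 1 in 14-7-2 (Pcdhac1, 5.87%), 3 in 14-14-0 (7.04%), 0 in 0-0-2 (2.78%), 0 in home cage mice (4.33%) and 2 between 14-7-2 and 14-7-0 (6.40%). Same-numbered libraries of different groups had correlations of their deviations from -0.41 to 0.71 (median 0.09), and 96 of 210 pairs were over 0.1, against a median of -0.02 and 203 of 840 in pairs of 1 cohort with other numbers. Some but not all same-numbered pairs were over 0.1, which does not decide whether a number marks a block. The sample labels give a number only, so the numbers were not taken to pair mice in the main fits. That 22 of 70 libraries correlated best with their own number is a hint from the data, not the design. Low values limit the alpha cluster most, since several of its genes lie near 1 FPKM and one library has a depth of 0.0359 relative to the reference library.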
